A study of Mus musculus with 13 samples.

Results

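Heat shock chaperones were followed across bone marrow of mice transplanted with guide-transduced blood stem and progenitor cells. The set was fixed by name and holds 10 genes: the inducible HSP70 genes Hspa1a and Hspa1b, the constitutive Hspa8, the HSP110 gene Hsph1, the co-chaperone Dnajb1, the cytosolic HSP90 genes Hsp90aa1 and Hsp90ab1, the mitochondrial pair Hspd1 and Hspe1, and the transcription factor Hsf1. Of these, 7 had a row in the array annotation, 1 row each, among 19505 gene symbols, and all 7 were bright enough to be tested with 10601 genes in all. Hspa8, Hsp90ab1 and Hsf1 had no named row and were not analysed here. Whole marrow RNA was read on 13 Affymetrix arrays, with 4 in the BRSST+sgEzh2 group, 5 in the BRSST+sgLuc group and 4 in the sgLuc group. BRSST is the submitters' name for a combination of guide RNAs whose letters the labels leave unexplained, and sgLuc is the guide that stands in for it, or for sgEzh2, in the comparison groups. Donor LSK cells, a marrow fraction rich in haematopoietic stem and progenitor cells, came in all groups from Cas9 knock-in mice and entered C57Bl/6J recipients that had received 7 Gy, 24 h after transduction. Marrow was taken when signs of leukemia appeared or after 6 months, and neither the case that applies to a sample, nor the age of the mice, nor the share of transduced cells in the marrow is given in the sources used here.

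Heat shock proteins bind unfolded polypeptides and help them reach or keep their fold. HSP70 works in cycles of ATP hydrolysis that J domain proteins such as Dnajb1 start and that exchange factors such as the HSP110 protein Hsph1 complete, while HSP90 matures signalling proteins, among them kinases and steroid receptors. HSF1 switches on many of these genes under protein stress by binding inverted repeats of the triplet GAA, the heat shock element. In blood formation, HSP70 is known from human erythroblasts to shield GATA1 from caspase cleavage.

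Values are log2 signals with array medians from 7.19 to 7.32, and replicate arrays correlated at 0.963 (BRSST+sgEzh2 pairs, mean), 0.939 (BRSST+sgLuc pairs) and 0.978 (sgLuc pairs). Mean signal of 13 neutrophil genes lay between 12.76 and 12.94 on all arrays, among the brightest signals, and 9 measured B lineage genes averaged 7.23 to 9.31 with BRSST+sgEzh2, 7.07 to 8.93 with BRSST+sgLuc and 9.46 to 10.72 with sgLuc. The guide target Ezh2 averaged 8.78 ± 0.50 with BRSST+sgEzh2, 9.82 ± 0.50 with BRSST+sgLuc and 10.35 ± 0.28 with sgLuc (SD, n = 4, 5 and 4). The Y-linked genes Uty and Kdm5d gave a high signal on 2 arrays with BRSST+sgEzh2, 2 with BRSST+sgLuc and all 4 with sgLuc. The submitters' sample numbers in the label descriptions run on without a break through both BRSST groups and resume for sgLuc only after a gap, so a batch in step with these numbers cannot be told apart from sgLuc itself. The labels do not tie arrays to separate mice, and p-values then measure the spread between samples, which may be technical.

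Hsph1, the HSP110 exchange factor of HSP70, was lower in both BRSST groups than in sgLuc marrow. Its log2 signal was 7.06, 7.57, 7.67 and 6.90 on the BRSST+sgEzh2 arrays, 6.60, 6.97, 7.62, 6.63 and 6.74 on the BRSST+sgLuc arrays, and 9.15, 8.47, 8.03 and 8.55 on the sgLuc arrays. Every array of either BRSST group lay below every sgLuc array, while the BRSST groups overlapped each other. Group means were 7.30 ± 0.38 with BRSST+sgEzh2, 6.91 ± 0.42 with BRSST+sgLuc and 8.55 ± 0.46 with sgLuc (SD, n = 4, 5 and 4). Against sgLuc, Hsph1 fell by 1.64 ± 0.25 (log2, SE) in BRSST+sgLuc marrow, to 32.1% of the sgLuc level (limma adjusted p = 0.000716), which placed it at number 135 among the falls of 10601 genes. In BRSST+sgEzh2 marrow it fell by 1.25 ± 0.27 against sgLuc, to 42.1% (limma adjusted p = 0.00932), number 140 among the falls of that comparison. Both comparisons share the sgLuc arrays. Between BRSST+sgEzh2 and BRSST+sgLuc the difference was 0.39 ± 0.25, with a 95% confidence interval from -0.15 to 0.93, and did not pass (limma adjusted p = 0.533). In whole marrow, fewer cells of a type that carries the transcript and less RNA per cell cannot be told apart.

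The Hsph1 calls held without any 1 array, with changes from -1.82 to -1.44 for BRSST+sgLuc against sgLuc and from -1.42 to -1.05 for BRSST+sgEzh2 against sgLuc. Within the arrays with high Y-linked signal, which all 3 groups have, the changes were -1.94 and -1.23 (limma adjusted p = 0.000972 and 0.016). Below the array median lay the Hsph1 signal of 2 arrays with BRSST+sgEzh2, 4 with BRSST+sgLuc and 0 with sgLuc. Signals that low can hold a share of background, which was not measured here, so the size of the fold is uncertain. Testing required a signal above the median on at least 4 arrays, which Hsph1 met only with the help of its high sgLuc arrays. Its rank and lack of overlap among the genes tested are thus not independent of that filter. Both calls also held with no filter.

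**Figure D1:**
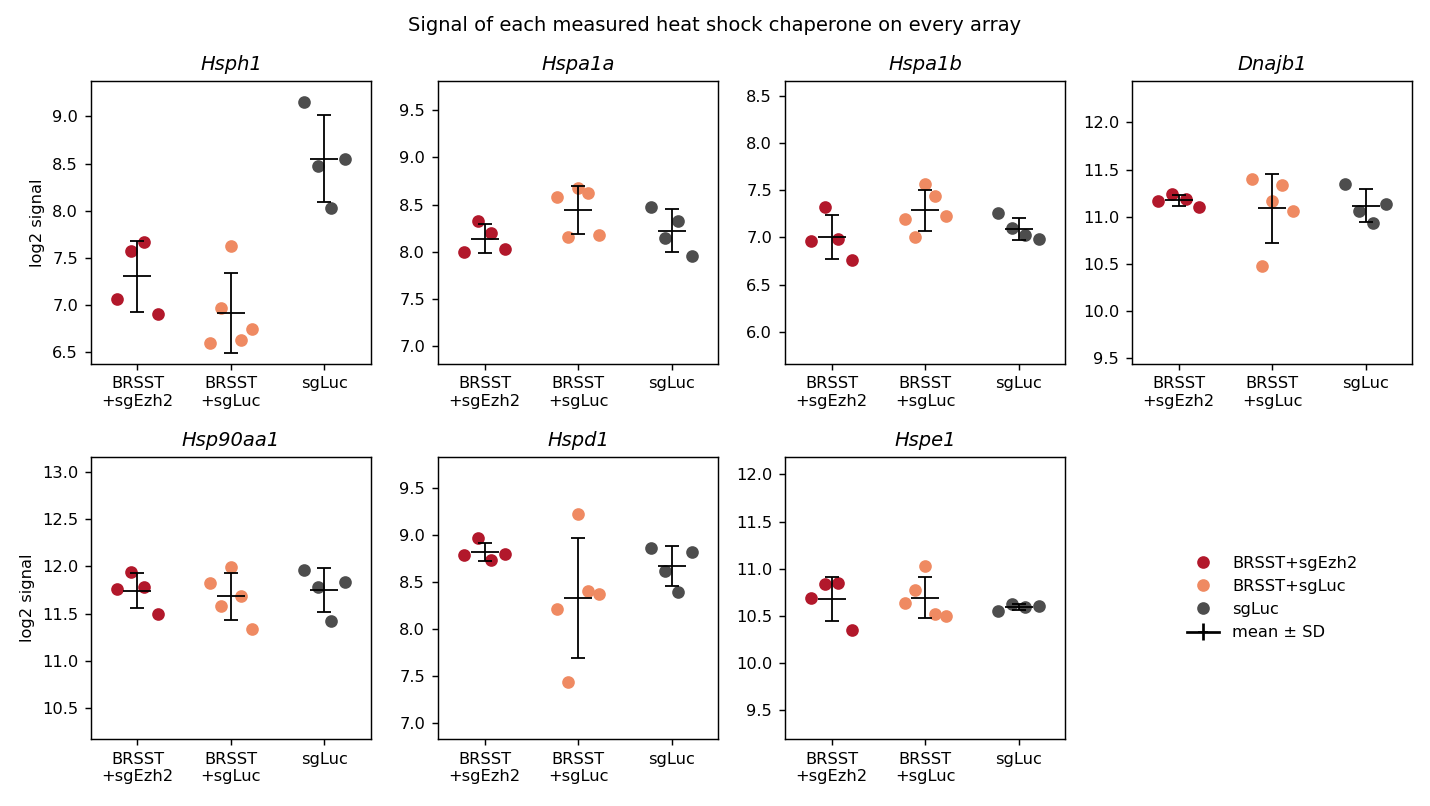
Log2 signal (y axis, each panel spanning the same number of log2 units) of the 7 measured chaperones in BRSST+sgEzh2, BRSST+sgLuc and sgLuc marrow, with 1 point per array and the mean ± SD as bars. Hsph1 is the panel in which all sgLuc points (8.03 to 9.15) stand above all BRSST points (6.60 to 7.67), and the groups overlap in the other 6 panels.

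The Hsph1 promoter is shown because this gene carried the change. RefSeq lists 2 start sites for it, and the window of 250 bases before to 50 after one of them is chr5:149636287-149636586 (GRCm38.p6, minus strand), with capitals on every match to a heat shock element of 2 units, GAANNTTC or TTCNNGAA, searched as both spellings since each reads the same on either strand.
Hsph1: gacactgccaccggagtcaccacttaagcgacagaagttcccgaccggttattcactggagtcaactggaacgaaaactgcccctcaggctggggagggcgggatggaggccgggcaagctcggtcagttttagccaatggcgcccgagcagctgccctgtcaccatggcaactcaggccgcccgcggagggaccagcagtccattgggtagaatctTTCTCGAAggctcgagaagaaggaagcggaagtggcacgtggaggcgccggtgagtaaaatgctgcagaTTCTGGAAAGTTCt
It holds 3 such matches, of which the last 2 overlap and form an element of 3 units, in which a further inverted unit follows after 2 bases, downstream of the start. Of 32851 windows of this length in the table, 15.1% hold an element of 2 units and 0.603% an element of 3 units. A match is a description of the letters and does not show that HSF1 was bound.

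Several marker lists moved between the same groups as Hsph1. Beside the counts below, 11.7% of all genes tested fell and 10.8% rose with BRSST+sgLuc against sgLuc by limma. With BRSST+sgEzh2 against sgLuc, 3.86% fell and 5.51% rose. The B lineage list was at 7.23 to 9.31 with BRSST+sgEzh2, 7.07 to 8.93 with BRSST+sgLuc and 9.46 to 10.72 with sgLuc, with 7 of 8 tested genes lower in BRSST+sgLuc and 1 of 8 lower in BRSST+sgEzh2 than in sgLuc by limma. The 9 measured T and NK cell genes averaged 6.43 to 8.74 with BRSST+sgEzh2, 6.62 to 8.01 with BRSST+sgLuc and 8.52 to 8.85 with sgLuc, and 1 of 8 tested fell with BRSST+sgEzh2 and 6 of 8 with BRSST+sgLuc against sgLuc. The 9 measured monocyte and macrophage genes averaged 10.01 to 10.78 with BRSST+sgEzh2, 9.27 to 10.30 with BRSST+sgLuc and 10.51 to 10.70 with sgLuc, so that BRSST+sgLuc and sgLuc did not overlap. Of these, 1 of 9 rose and 1 fell with BRSST+sgEzh2, and 4 of 9 fell with BRSST+sgLuc, against sgLuc. BRSST+sgEzh2 replicate 3, whose T and NK mean of 8.74 lay within the sgLuc range and whose B lineage mean was 9.24, had an Hsph1 signal of 7.67, below the lowest sgLuc array at 8.03. BRSST+sgLuc replicates 2 and 3 had B lineage means of 8.93 and 7.57 and Hsph1 signals of 6.97 and 7.62. Replicates 1, 4 and 5 of that group had B lineage means of 7.07, 7.16 and 7.23 and Hsph1 signals of 6.60, 6.63 and 6.74. In BRSST+sgEzh2, replicates 2 and 3 had B lineage means of 9.31 and 9.24 and Hsph1 signals of 7.57 and 7.67. Its replicates 1 and 4 had B lineage means of 7.23 and 7.88 and Hsph1 signals of 7.06 and 6.90. Erythroid genes averaged 7.38 to 8.05 with BRSST+sgEzh2, 8.03 to 8.90 with BRSST+sgLuc and 7.39 to 7.82 with sgLuc, and 0 of 10 tested passed with BRSST+sgEzh2 and 4 of 10 rose with BRSST+sgLuc. The 15 immediate early genes, which respond to stress and to handling of cells, averaged 10.05 to 10.57 with BRSST+sgEzh2, 9.85 to 10.64 with BRSST+sgLuc and 9.51 to 10.11 with sgLuc, and 4 of 14 tested rose with BRSST+sgEzh2 and 6 of 14 with BRSST+sgLuc against sgLuc. Of 13 neutrophil genes tested, 2 rose and 3 fell with BRSST+sgLuc, and 2 rose and 1 fell with BRSST+sgEzh2, against sgLuc. Of 11 cycling cell genes tested, 2 fell with BRSST+sgLuc and 0 passed with BRSST+sgEzh2. The part of any of these lists in the Hsph1 difference was not tested.

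**Figure D2:**
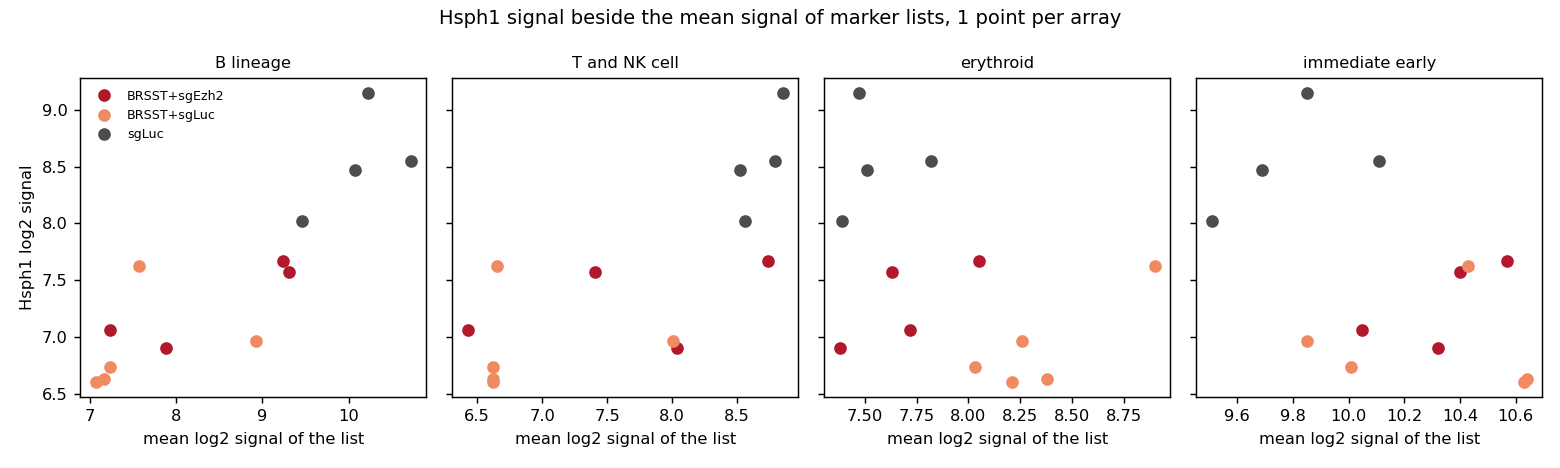
Hsph1 log2 signal (y axis) against the mean log2 signal of 4 marker lists (x axes: B lineage, T and NK cell, erythroid, immediate early), 1 point per array, coloured by group. The sgLuc arrays lie above all others in the B lineage panel (9.46 to 10.72), while 1 BRSST+sgEzh2 array reaches the sgLuc range of the T and NK list at 8.74 with an Hsph1 signal of 7.67.

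Hspa1a and Hspa1b, the stress-inducible HSP70 genes and textbook targets of HSF1, did not pass in any comparison. Hspa1a had log2 signals of 8.0, 8.32, 8.20 and 8.03 with BRSST+sgEzh2, 8.58, 8.16, 8.67, 8.63 and 8.17 with BRSST+sgLuc, and 8.47, 8.15, 8.33 and 7.95 with sgLuc. Hspa1b had 6.96, 7.33, 6.99 and 6.76 with BRSST+sgEzh2, 7.20, 7.01, 7.56, 7.44 and 7.23 with BRSST+sgLuc, and 7.25, 7.10, 7.03 and 6.99 with sgLuc. For both genes BRSST+sgLuc replicate 3 was the highest array of all, and all groups overlapped. Between BRSST+sgEzh2 and BRSST+sgLuc, Hspa1a differed by -0.30 ± 0.15 (log2, SE, interval -0.62 to 0.01, limma adjusted p = 0.371) and Hspa1b by -0.28 ± 0.14 (-0.57 to 0.01, 0.381). Between BRSST+sgLuc and sgLuc the differences were 0.22 ± 0.15 (interval -0.09 to 0.53, limma adjusted p = 0.321) and 0.19 ± 0.14 (-0.10 to 0.49, 0.348). The Hspa1a difference passed as a rise of 0.32 with array quality weights (0.0461) and of 0.40 with BRSST+sgLuc replicates 2 and 5 set aside (0.0377). BRSST+sgEzh2 against sgLuc gave -0.09 for each gene, with limma adjusted p of 0.803 and 0.784. Hspa1b lay below the array median on 3 of 4, 1 of 5 and 4 of 4 arrays of BRSST+sgEzh2, BRSST+sgLuc and sgLuc. It stood between percentiles 43.6 and 55.1 of the rows on its arrays, where the share of background was not measured here.

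The promoters of the HSP70 pair are shown side by side for their near-identity. Windows are chr17:34972107-34972406 for Hspa1a and chr17:34959189-34959488 for Hspa1b (RefSeq, GRCm38.p6, minus strand), with capitals as above.
Hspa1a: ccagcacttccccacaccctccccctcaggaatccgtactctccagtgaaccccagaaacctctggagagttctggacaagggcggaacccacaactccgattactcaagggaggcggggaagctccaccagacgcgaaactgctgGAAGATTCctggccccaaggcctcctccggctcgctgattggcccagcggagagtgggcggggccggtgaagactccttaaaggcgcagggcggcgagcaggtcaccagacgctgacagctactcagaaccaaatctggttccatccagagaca
Hspa1b: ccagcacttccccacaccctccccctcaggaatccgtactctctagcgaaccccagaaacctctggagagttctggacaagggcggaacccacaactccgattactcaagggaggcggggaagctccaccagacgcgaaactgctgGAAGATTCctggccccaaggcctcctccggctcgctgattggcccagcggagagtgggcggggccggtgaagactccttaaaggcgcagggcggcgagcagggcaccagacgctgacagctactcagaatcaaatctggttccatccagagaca
The windows are identical at 296 positions and differ at 4, and each holds 1 element of 2 units, at bases -104 to -97 from the start. Promoter windows do not show what the array probes bind, and probe sequences were not compared here. The genes are close paralogs whose probes can share signal, so the split between them is uncertain.

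Dnajb1, the HSP40 that delivers clients to HSP70 and another known HSF1 target, did not pass in any comparison. Its log2 signal was 11.16, 11.24, 11.19 and 11.10 with BRSST+sgEzh2, 11.40, 10.48, 11.17, 11.34 and 11.06 with BRSST+sgLuc, and 11.35, 11.06, 10.93 and 11.13 with sgLuc. The groups overlapped, and BRSST+sgLuc replicate 2 was the lowest of all arrays. Differences were 0.09 ± 0.16 for BRSST+sgEzh2 minus BRSST+sgLuc, -0.03 ± 0.16 for BRSST+sgLuc minus sgLuc and 0.06 ± 0.17 for BRSST+sgEzh2 minus sgLuc (log2, SE), with limma adjusted p of 0.861, 0.924 and 0.89. Without BRSST+sgLuc replicate 2 the first 2 turned to -0.07 and 0.12, again short of the threshold. Neither of its RefSeq windows held an element of 2 units in the spelling searched, which says only that these letters are not there.

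Hsp90aa1, the inducible cytosolic HSP90, had log2 signals of 11.77, 11.94, 11.78 and 11.49 with BRSST+sgEzh2, 11.82, 11.58, 11.99, 11.69 and 11.34 with BRSST+sgLuc, and 11.96, 11.79, 11.42 and 11.83 with sgLuc. All 3 groups covered much the same range. Differences were 0.06 ± 0.15, -0.07 ± 0.15 and -0.01 ± 0.16 (log2, SE) for BRSST+sgEzh2 minus BRSST+sgLuc, BRSST+sgLuc minus sgLuc and BRSST+sgEzh2 minus sgLuc, with limma adjusted p from 0.791 to 0.988. The 95% intervals lay between -0.39 and 0.38.

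Hspd1 and Hspe1 encode HSP60 and its lid HSP10, the chaperonin of the mitochondrial matrix, and are known to share a bidirectional promoter. Hspd1 had log2 signals of 8.78, 8.96, 8.74 and 8.80 with BRSST+sgEzh2, 8.22, 7.44, 9.22, 8.41 and 8.37 with BRSST+sgLuc, and 8.86, 8.62, 8.40 and 8.81 with sgLuc. BRSST+sgLuc held both the lowest and the highest array of all, and its SD was 0.64 against 0.10 in BRSST+sgEzh2 and 0.21 in sgLuc. Hspd1 differed by 0.49 ± 0.25 between BRSST+sgEzh2 and BRSST+sgLuc (log2, SE, interval -0.05 to 1.03, limma adjusted p = 0.413). BRSST+sgLuc minus sgLuc gave -0.34 ± 0.25 (-0.88 to 0.20, 0.375), and BRSST+sgEzh2 minus sgLuc gave 0.15 ± 0.27 (0.803). Without BRSST+sgLuc replicate 3 the first 2 became 0.71 and -0.56 (limma adjusted p = 0.0625 and 0.0506), and without replicate 2 they became 0.26 and -0.12 (0.544 and 0.706). Hspe1 had 10.69, 10.84, 10.85 and 10.35 with BRSST+sgEzh2, 10.64, 10.77, 11.03, 10.52 and 10.50 with BRSST+sgLuc, and 10.55, 10.63, 10.59 and 10.60 with sgLuc. The sgLuc arrays sat close together, inside the range of both BRSST groups. Its differences were -0.01 ± 0.13 for BRSST+sgEzh2 minus BRSST+sgLuc, 0.10 ± 0.13 for BRSST+sgLuc minus sgLuc and 0.09 ± 0.14 for BRSST+sgEzh2 minus sgLuc (limma adjusted p of 0.986, 0.651 and 0.764).

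The shared promoter is shown from the Hspe1 side, chr1:55087898-55088197 (RefSeq, GRCm38.p6, plus strand), since 285 of its bases also lie in one of the 2 windows listed for Hspd1 on the minus strand. Capitals again mark heat shock elements.
Hspe1: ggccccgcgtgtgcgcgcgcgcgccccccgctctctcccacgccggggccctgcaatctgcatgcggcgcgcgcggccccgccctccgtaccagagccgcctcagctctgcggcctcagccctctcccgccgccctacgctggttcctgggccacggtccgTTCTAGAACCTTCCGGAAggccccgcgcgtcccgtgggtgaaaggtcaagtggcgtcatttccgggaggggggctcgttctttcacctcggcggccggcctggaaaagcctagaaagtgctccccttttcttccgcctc
Here 3 elements of 2 units overlap in 1 run, from base -89 to base -72 before the Hspe1 start. Among the 6 measured members with a window in the table, 5 held an element of 2 units in at least 1 window and 3 held one of 3 units, Hsph1, Hspd1 and Hspe1. These are not separate cases, since Hspd1 and Hspe1 hold the same run and the Hspa1a and Hspa1b windows are 98.7% identical. Of all windows, 15.1% hold an element of 2 units and 0.603% one of 3 units, shares per window and not per gene. Hsp90aa1 was not matched.

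Across the set, 0 of 7 members passed between BRSST+sgEzh2 and BRSST+sgLuc by limma, beside 0.783% of all genes (0.67% higher and 0.113% lower), and 0 of 7 had an unadjusted p under 0.05, beside 13.9%. Against sgLuc, 1 of 7 passed with BRSST+sgLuc, where 22.5% of all genes did, and 1 of 7 with BRSST+sgEzh2, where 9.37% did. That gene was Hsph1 in both cases. Falls made up 11.7% of all genes with BRSST+sgLuc and 3.86% with BRSST+sgEzh2, and rises 10.8% and 5.51%. At an unadjusted p under 0.05 the count was again 1 of 7 in each, beside 35.1% and 24.3% of all genes. Groups did not overlap for 1 of 7 members in each comparison with sgLuc, Hsph1 again, beside 18.9% of all genes for BRSST+sgLuc and 23.3% for BRSST+sgEzh2, and for 0 of 7 between BRSST+sgEzh2 and BRSST+sgLuc, beside 3.53%. A count of 1 in 7 is near these shares and is not a result about the set as a whole. The median difference over the 7 members was 0.06 for BRSST+sgEzh2 minus BRSST+sgLuc, -0.03 for BRSST+sgLuc minus sgLuc and -0.01 for BRSST+sgEzh2 minus sgLuc, beside 0.01, 0.01 and 0.02 over all genes tested. The 95% interval of Hsph1 ran from -2.18 to -1.10 for BRSST+sgLuc minus sgLuc, clear of the other 6 members, whose intervals lay between -0.88 and 0.53. For BRSST+sgEzh2 minus sgLuc it ran from -1.82 to -0.68, and those of the other 6 lay between -0.42 and 0.72. A change of Hsph1's size was thus outside the intervals of these 6 genes, while smaller changes were not.

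**Figure D3:**
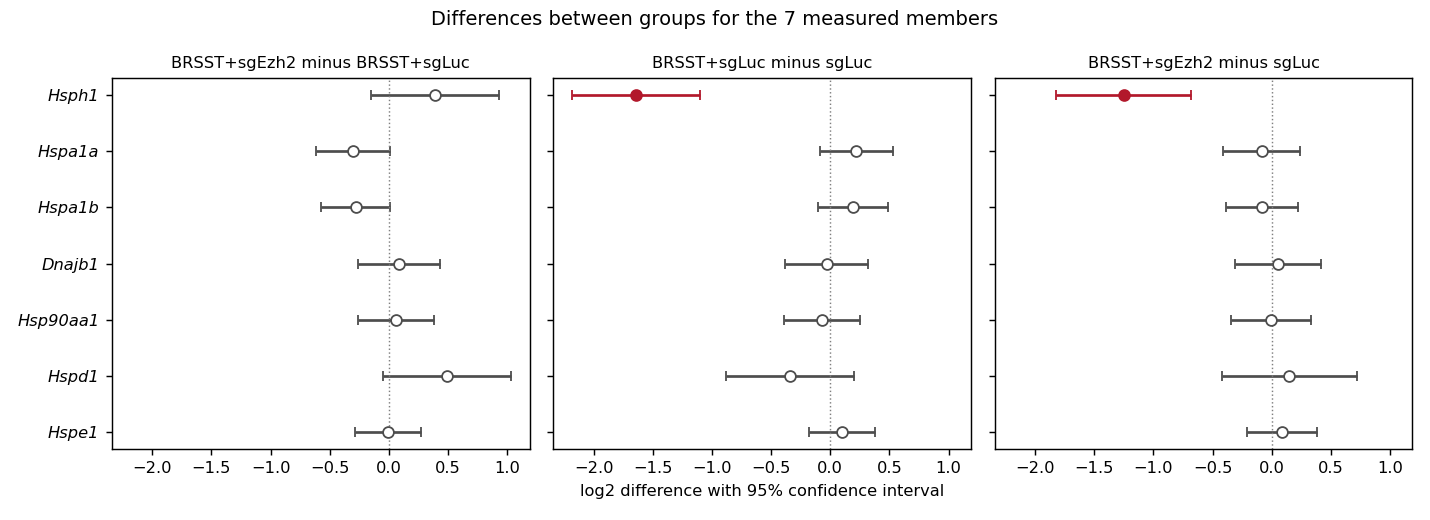
Log2 difference (x axis) with its 95% confidence interval from limma for each measured chaperone (rows) in the 3 comparisons (panels), filled red where the adjusted p was under 0.05. Hsph1 stands alone on the left at -1.64 and -1.25 in both comparisons with sgLuc, and the intervals of the other 6 members reach across 0.

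Within groups, some arrays were high or low for most of the members at once. BRSST+sgLuc replicate 3 was above its group mean for 7 of 7 members and the highest of its group for 6. BRSST+sgEzh2 replicate 2 was above its group mean for 7 of 7 and highest for 5, and BRSST+sgEzh2 replicate 4 was below the mean for all 7, lowest for 5. In sgLuc, replicate 1 was highest for 6 of 7 members and replicate 3 lowest for 4. BRSST+sgLuc replicate 2 was lowest for 4, with Hspd1 at 0.90 and Dnajb1 at 0.61 log2 below the group mean, while its Hsph1 and Hspe1 signals were slightly above theirs. The cycling cell list averaged 10.63 on BRSST+sgLuc replicate 3 and 9.78 on replicate 2, the highest and the lowest of that group. It averaged 10.52 on BRSST+sgEzh2 replicate 4, the highest of that group, and 10.47 on sgLuc replicate 1, the lowest of that group. The erythroid list averaged 8.90 on BRSST+sgLuc replicate 3 and 8.26 on replicate 2, and was lowest in that group on replicate 5, at 8.03. The part of these lists in the array pattern was not tested.

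**Figure D4:**
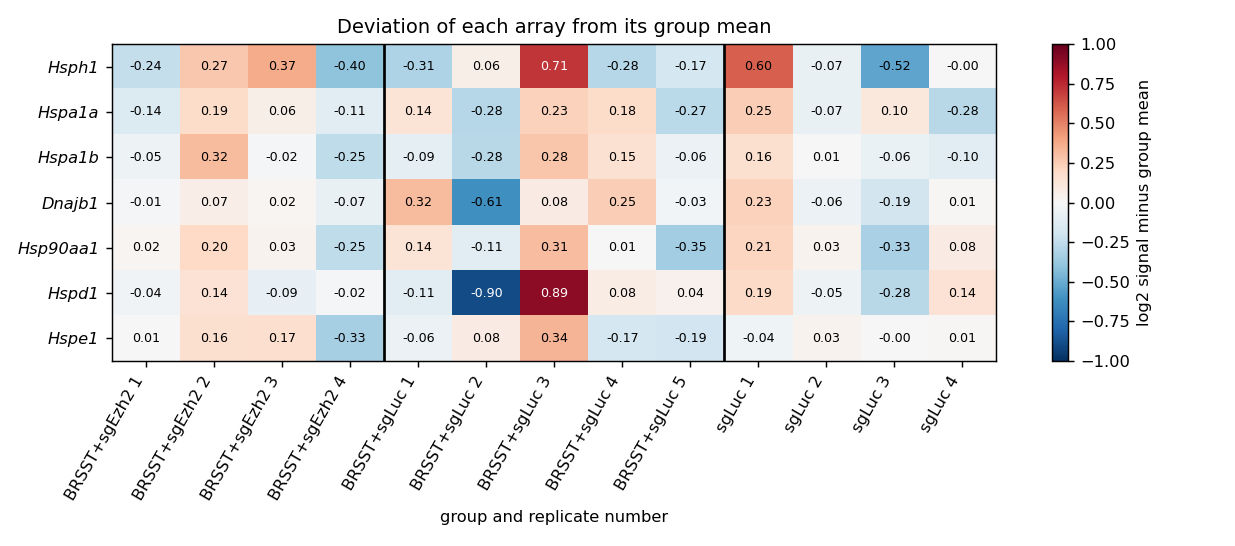
Log2 signal minus its group mean (colour and printed value) for the 7 measured chaperones (rows) on each of 13 arrays (columns, parted by group). Red fills the column of BRSST+sgLuc replicate 3, and BRSST+sgLuc replicate 2 holds the deepest blue, for Hspd1 and Dnajb1.

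Over the 13 arrays, deviations from the group means were compared for all 21 pairs of members. Pearson's r was positive for 20 pairs, with a median of 0.55 and a range from -0.10 to 0.75. Array-wide differences in RNA and labelling are shared by all genes of an array. Pairs of other genes were not compared here, so these values are not shown to be particular to the chaperones. Two-sided permutation within groups gave an adjusted p under 0.05 for r in 3 pairs and for Spearman's rho in 0 pairs. Hspa1a and Hspa1b, whose probes may share signal, had r = 0.75 and rho = 0.78 (permutation p = 0.00625 and 0.00639, adjusted over 21 pairs 0.0483 and 0.102), and r = 0.68 without the 2 arrays farthest from the median of Hspa1a. Hspa1b and Hspd1 had r = 0.72 and rho = 0.65 (permutation p = 0.00453 and 0.0321, adjusted 0.0483 and 0.112), and r = 0.64 without 2 arrays. Hsph1 and Hspe1 had r = 0.69 and rho = 0.71 (permutation p = 0.0069 and 0.00975, adjusted 0.0483 and 0.102), and r = 0.72 without 2 arrays. Hspd1 and Hspe1, with their shared promoter, had r = 0.28 and rho = 0.07 (permutation p = 0.48 and 0.841, adjusted 0.53 and 0.883), and r = -0.04 without 2 arrays. The genes outside the lists whose deviations over 13 arrays were most like the mean of Hsph1, Hspa1a, Hspa1b and Dnajb1 were Grwd1 (r = 0.86), a ribosome assembly factor, Tra2b (0.84), a splicing factor, Angptl4 (0.84), an inhibitor of lipoprotein lipase, Aldh18a1 (0.83), an enzyme of proline synthesis, and Psme3 (0.82), a proteasome activator. These were picked from 10601 genes for that likeness, and r is given as a description.

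Around the set, 99 further chaperone and co-chaperone genes in 9 lists were followed, of which 92 had a row and 78 were tested. In BRSST+sgLuc against sgLuc, 13 of 78 (16.7%) passed by limma, 8 higher and 5 lower, beside 22.5% of all genes. In BRSST+sgEzh2 against sgLuc 6 of 78 (7.69%) passed, all higher, beside 9.37%. In BRSST+sgEzh2 against BRSST+sgLuc 0 of 78 passed, beside 0.783%. At an unadjusted p under 0.05 there were 14 of 78, beside 13.9% of all genes, and 10 of these 14 were chaperones of the endoplasmic reticulum. In the other lists some alternatives gave calls in this comparison. With array quality weights HSP70 relatives, HSP90 co-chaperones and mitochondrial genes had 1 rise each and exchange factors 1 fall, beside 9.8% of all genes. HSP70 relatives had 1 rise without BRSST+sgLuc replicate 3, beside 3.56%. HSP90 co-chaperones had 1 rise in the high Y-linked class alone, beside 6.81%.

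Partners of HSP90 held the largest change among these genes. Of 12 tested HSP90 co-chaperones, 1 rose and 1 fell in BRSST+sgLuc against sgLuc and 1 rose in BRSST+sgEzh2 against sgLuc. Fkbp5, an HSP90-binding immunophilin and known glucocorticoid receptor target, averaged 10.31 ± 0.20 with BRSST+sgEzh2, 10.58 ± 0.32 with BRSST+sgLuc and 8.92 ± 0.10 with sgLuc (SD, n = 4, 5 and 4). It rose by log2 1.66 ± 0.15 with BRSST+sgLuc and by 1.39 ± 0.16 with BRSST+sgEzh2 against sgLuc (SE, limma adjusted p = 1.85e-05 and 0.00012), and no sgLuc array reached either BRSST group. Chordc1, an HSP90 co-chaperone that heat shock is known to induce, ran from 7.33 to 8.73 with BRSST+sgLuc and from 8.55 to 9.0 with sgLuc, and fell by 0.79 ± 0.25 (limma adjusted p = 0.0341). That call ended without BRSST+sgLuc replicate 1, 4 or 5 or sgLuc replicate 1, 2 or 4 (adjusted p of up to 0.0902) and with only the 2 groups compared (0.0713). The list medians were 0.03 for BRSST+sgEzh2 minus BRSST+sgLuc, -0.04 for BRSST+sgLuc minus sgLuc and 0.08 for BRSST+sgEzh2 minus sgLuc, beside 0.01, 0.01 and 0.02 over all genes, and the second was 0.00 with quantile normalization. Ahsa2, a relative of the HSP90 activator Ahsa1, had the smallest p between BRSST+sgEzh2 and BRSST+sgLuc (-0.33, limma adjusted p = 0.392).

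Among HSP70 relatives and their helpers, calls were few in each list. Hspa13, a microsomal HSP70 family member, averaged 8.33 ± 0.14 with BRSST+sgEzh2, 7.85 ± 0.45 with BRSST+sgLuc and 8.78 ± 0.10 with sgLuc, and fell by 0.93 ± 0.19 in BRSST+sgLuc against sgLuc (limma adjusted p = 0.00354), the 1 call among 6 tested. Of 11 cytosolic J domain genes, 2 rose and 1 fell with BRSST+sgLuc and 3 rose with BRSST+sgEzh2 against sgLuc. Dnajb4, an HSP40 relative of Dnajb1, averaged 7.94 ± 0.52 with BRSST+sgEzh2, 7.71 ± 0.57 with BRSST+sgLuc and 6.79 ± 0.35 with sgLuc, and rose by 1.15 ± 0.31 with BRSST+sgEzh2 and by 0.91 ± 0.29 with BRSST+sgLuc (limma adjusted p = 0.0321 and 0.0372). Its sgLuc signals, from 6.31 to 7.10, all lay below the array median, so it was tested only through the BRSST arrays. The share of background at such signals was not measured here, and the size of these folds is uncertain. Dnajc2, a ribosome-associated J protein, rose by 0.68 ± 0.18 with BRSST+sgEzh2 and by 0.59 ± 0.17 with BRSST+sgLuc (0.0306 and 0.0238). Dnajc7, which links HSP70 with HSP90, fell by 0.45 ± 0.11 with BRSST+sgLuc (limma adjusted p = 0.0087). Dnajc8, a J protein of the spliceosome, rose by 0.37 ± 0.11 with BRSST+sgEzh2 (0.0478). Bag1, an HSP70 exchange factor, ran from 10.91 to 11.13 with BRSST+sgLuc and from 10.34 to 10.66 with sgLuc and rose by 0.44 ± 0.10 (limma adjusted p = 0.00736), the 1 call among 7 exchange factors and co-factors. With BRSST+sgEzh2 that list had 0 calls, and Bag5, an exchange factor of the same family, was at 0.54 ± 0.19 against sgLuc (limma adjusted p = 0.091). The rises of Dnajb4 were lost without sgLuc replicate 1, 2 or 3, without BRSST+sgEzh2 replicate 2, 3 or 4 in the one comparison and without BRSST+sgLuc replicate 1, 4 or 5 in the other (adjusted p of up to 0.105 and 0.111). Dnajc2 lost its call with BRSST+sgEzh2 without any 1 of that group's 4 arrays or sgLuc replicate 1 or 3 (up to 0.0883) and with BRSST+sgLuc without sgLuc replicate 3 (0.0623) or with only the 2 groups compared (0.0526), and Dnajc8 lost its own without any 1 array but BRSST+sgEzh2 replicate 3 (up to 0.124). All sgLuc arrays are of the high Y-linked class. Both Dnajc2 calls and that of Dnajc8 were lost with this class as a block and in the high class alone, and the Dnajb4 call with BRSST+sgEzh2 in the high class alone. The replicate block ended the calls of Dnajb4 in both comparisons, of Dnajc2 with BRSST+sgLuc, of Dnajc8 and of Chordc1.

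Mitochondrial chaperones and proteases other than Hspd1 and Hspe1 gave 3 rises and 1 fall among 13 tested in BRSST+sgLuc against sgLuc. Clpp, the catalytic subunit of a matrix protease, averaged 10.08 ± 0.37 with BRSST+sgLuc and 9.42 ± 0.22 with sgLuc, and rose by 0.66 ± 0.19 (limma adjusted p = 0.0211, but 0.0687 at most without sgLuc replicate 1 or 3). Dnajc15 and Dnajc19, J proteins of the import motor, each rose by 0.49 ± 0.11 (0.00753 and 0.00531). Yme1l1, a protease of the inner membrane, averaged 8.68 ± 0.32 with BRSST+sgEzh2, 8.19 ± 0.27 with BRSST+sgLuc and 9.01 ± 0.28 with sgLuc, and fell by 0.81 ± 0.18 in BRSST+sgLuc (limma adjusted p = 0.00633). In BRSST+sgEzh2 against sgLuc 1 of 13 passed, Dnajc19 (0.44 ± 0.11, limma adjusted p = 0.0249), a call lost without any of 4 arrays, BRSST+sgEzh2 replicates 1 and 2 and sgLuc replicates 1 and 2 (up to 0.09). Other alternatives gave more calls there. With only the 2 groups compared 4 rose, beside 17.2% of all genes called, and with the stricter filter 3 of 6 tested, beside 15%. Array quality weights gave 6 rises and 1 fall, beside 28.1%, and the high Y-linked class alone 3 rises, beside 17.7%.

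Chaperones of the endoplasmic reticulum (ER) had signals above those of BRSST+sgLuc in BRSST+sgEzh2 marrow for 16 of 17 genes tested, with a median of 0.41 beside 0.01 over all genes, but 0 passed the test. At an unadjusted p under 0.05 there were 10 of 17, beside 13.9% of all genes. With quantile normalization or equal array medians 15 of 17 were above, with medians of 0.35 and 0.38. The count of rises depended on the arrays: it was 6 of 17 without BRSST+sgLuc replicate 3, beside 3.56% of all genes called there, 7 with array quality weights, beside 9.8%, and 5 in the high Y-linked class alone, beside 6.81%. Without any other 1 array it was 0. Hspa5, the HSP70 of the ER (BiP), averaged 11.46 ± 0.14 with BRSST+sgEzh2 and 10.75 ± 0.45 with BRSST+sgLuc, a difference of 0.71 ± 0.19 (limma adjusted p = 0.102). In BRSST+sgLuc against sgLuc the ER list had a median of -0.12, with 1 rise and 1 fall among 17. Without BRSST+sgLuc replicate 3 the median was -0.32 with 5 falls, with replicates 2 and 5 set aside it was -0.04 with 1 fall, with array quality weights -0.21 with 7 falls, and in the high Y-linked class alone -0.27 with 5 falls. Hsp90b1, the HSP90 of the ER, averaged 11.34 ± 0.38 with BRSST+sgLuc and 11.96 ± 0.04 with sgLuc and fell by 0.62 ± 0.16 (limma adjusted p = 0.013). Dnajc3, an ER co-chaperone known to inhibit the stress kinases PERK and PKR, averaged 9.63 ± 0.15 with BRSST+sgEzh2, 9.87 ± 0.12 with BRSST+sgLuc and 9.25 ± 0.14 with sgLuc. It rose by 0.62 ± 0.11 with BRSST+sgLuc (limma adjusted p = 0.00149) and by 0.38 ± 0.11 with BRSST+sgEzh2 (0.0477), the second call lost without any 1 of 8 arrays (up to 0.124) and in 16 of its 20 alternatives in all, the Y-linked class as a block, the replicate block, no filter, both other scalings and the trended variance among them. In BRSST+sgEzh2 against sgLuc the ER list had 1 rise among 17 in the main fit. With only the 2 groups compared it had 5, beside 17.2% of all genes called. Array quality weights also gave 5, beside 28.1%, and the high Y-linked class alone gave 3, beside 17.7%.

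The cytosolic chaperonin TRiC, the small heat shock proteins and the HSF family gave 0 calls in each of the 3 comparisons of the main fit. Some alternatives gave calls. TRiC had 2 rises in BRSST+sgEzh2 against sgLuc with only the 2 groups compared, beside 17.2% of all genes called. With array quality weights the HSF family had 1 rise and 1 fall in BRSST+sgLuc against sgLuc, beside 46%. Small heat shock proteins had 1 rise in BRSST+sgEzh2 against sgLuc with these weights, beside 28.1%. They also had 1 rise in BRSST+sgLuc against sgLuc without BRSST+sgLuc replicate 2, beside 26.4%. Of 7 TRiC subunits tested, 7 were above sgLuc in BRSST+sgEzh2 in the main fit, with a median of 0.32 beside 0.02 over all genes. Tcp1 had the smallest p there (0.59 ± 0.23, limma adjusted p = 0.123). Only 2 of 8 small heat shock proteins were bright enough to test, and Hspb6 was at 0.75 ± 0.28 with BRSST+sgEzh2 and 0.58 ± 0.27 with BRSST+sgLuc against sgLuc (0.114 and 0.137). Hsf2, a relative of HSF1 that also binds heat shock elements, averaged 7.59 ± 0.42 with BRSST+sgEzh2, 6.97 ± 0.38 with BRSST+sgLuc and 7.25 ± 0.45 with sgLuc, and differed by 0.62 ± 0.25 between BRSST+sgEzh2 and BRSST+sgLuc (limma adjusted p = 0.277). Hsbp1, a binding protein known to restrain HSF1, was at 0.29 ± 0.16 in BRSST+sgLuc against sgLuc (0.226). The smallest p of a list was also met by the TRiC subunits Cct7 (0.42 in BRSST+sgEzh2 against BRSST+sgLuc, limma adjusted p = 0.481) and Cct2 (0.22 in BRSST+sgLuc against sgLuc, 0.321) and by the small heat shock protein Hspb2 (-0.08 in BRSST+sgEzh2 against BRSST+sgLuc, 0.83). Between BRSST+sgEzh2 and BRSST+sgLuc the same held for Hspa13 (0.48, limma adjusted p = 0.261), Dnajc7 (0.16, 0.553), Bag1 (-0.30, 0.199) and Yme1l1 (0.49, 0.242), and between BRSST+sgEzh2 and sgLuc for Hspa13 (-0.45, 0.172) and Hsf2 (0.34, 0.485).

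**Figure D5:**
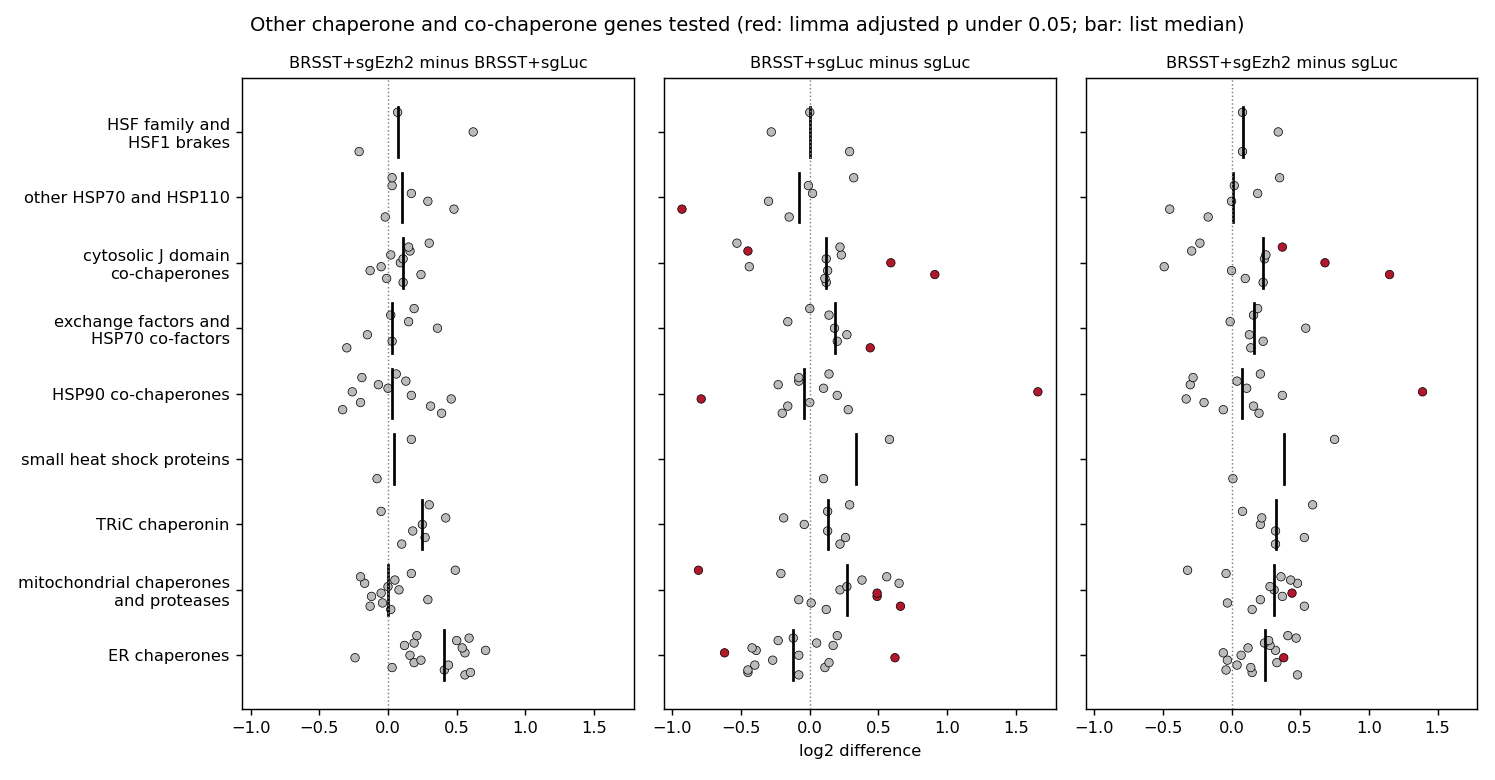
Log2 difference (x axis) of the 78 further chaperone genes tested, 1 point per gene, by list (rows) and comparison (panels), red where limma's adjusted p was under 0.05, with a bar at each list median. No point is red in the panel of BRSST+sgEzh2 minus BRSST+sgLuc, where the ER chaperones centre on 0.41, and Fkbp5 lies farthest right in both other panels, at 1.66 and 1.39.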

How the data were processed

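Each array has 1 deposited log2 signal per row. The submitters' processing notes name R 3.5.01 and oligo as the authors' tools. For background correction and normalization the method was not given in the sources used here. The log2 scale was read from the values, which run from 3.23 to 13.75. Per the labels' protocols, 2 ng of total RNA was amplified with 10 PCR cycles before transcription, which can compress large differences. Precision is limited by the number of arrays.

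Of 22203 rows, 19572 had 1 symbol and 2631 none, and for the 55 symbols with several rows the brightest row on average was kept. Testing required a signal above the array median on at least 4 arrays. Groups were compared in 1 fit over 13 arrays by lmFit and eBayes of limma 3.58.1 (R 4.3.3), adjusted by Benjamini-Hochberg over these genes, at 0.05. All adjusted p of genes are limma's. Pairs of members were tested with 100000 permutations within groups. The procedure was tested on simulated data. Promoter windows come from RefSeq (GRCm38.p6). Members and lists were chosen with earlier results of these data known. Named by rule were all members, per list and comparison the 2 called genes with the largest change or, without a call, the gene of smallest p, and 5 genes of like pattern. Dnajc7, Dnajc8, Dnajc15, and Dnajc19 in BRSST+sgLuc were chosen after their values were seen. The pattern rule lists Hspa8, which was not analysed here, so the mean is over the other 4. Alternatives were other filters, scalings, variance models, array weights, row means, blocks, thresholds and samples. Setting aside BRSST+sgLuc replicates 2 and 5, and the high Y-linked class alone, were chosen after seeing the data.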

Additional observations from a re-analysis of the deposited data

How the results depend on the processing

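Each comparison was refitted under the alternatives, giving 436 values of the 7 members, of which 398 kept direction and side of the threshold, 2 passed newly (Hspa1a, given with its values above) and 36 turned sign, all of them differences of Hsp90aa1, Dnajb1, Hspe1 or Hspa1b that did not pass before or after. Hsph1 kept its direction and both calls wherever it was tested. Differences are log2, and D1 stands for BRSST+sgEzh2 minus BRSST+sgLuc, D2 for BRSST+sgLuc minus sgLuc and D3 for BRSST+sgEzh2 minus sgLuc. With the stricter filter Hsph1 was not bright enough to be tested, so the count of members called was 0 in D2 and 0 in D3 in place of 1. With array quality weights and with BRSST+sgLuc replicates 2 and 5 set aside, the D2 count was 2. The replicate numbers did not pair the samples (correlations of same-numbered arrays from -0.18 to 0.19). The replicate block left Hsph1 at -1.60 in D2 and -1.25 in D3 (limma adjusted p = 0.00518 and 0.0257) and turned Hsp90aa1 to -0.025 in D1 and 0.018 in D2. The block moved the count over all genes from 83 to 28 in D1. Equal array medians turned Dnajb1 to 0.0099 in D2 and Hsp90aa1 to 0.0012 in D3. Array weights turned Dnajb1 to -0.11 in D1 and 0.12 in D2 and Hspe1 to 0.073 in D1. The Y-linked class as a block turned Dnajb1 to 0.14 in D2 and Hsp90aa1 to 0.030 in D2 and 0.075 in D3. Without BRSST+sgLuc replicates 2 and 5, Dnajb1 was at -0.13 in D1 and 0.18 in D2 and Hsp90aa1 at -0.089 in D1 and 0.082 in D2. In the high Y-linked class alone, Dnajb1 was at -0.17 in D1 and 0.25 in D2, Hspe1 at 0.19 in D1 and -0.015 in D2, Hsp90aa1 at 0.0026 in D2 and 0.10 in D3, and Hspa1b at 0.050 in D3. Leaving out 1 array at a time gave Dnajb1 from -0.067 to 0.16 in D1, -0.11 to 0.12 in D2 and -0.0057 to 0.13 in D3, Hsp90aa1 from -0.02 to 0.15, -0.18 to 0.02 and -0.12 to 0.077, and Hspe1 in D1 from -0.065 to 0.10. The cause of these turns was not tested. The filters also changed the number of genes tested. With the stricter filter 36 of 5520 genes passed in D1 (0.652%), and with no filter 128 of 19505 (0.656%), beside 0.783%. In D2 the shares were 33.4% and 11.9%, beside 22.5%, and in D3 15% and 5.16%, beside 9.37%. With the main filter, counts over all genes moved by over 1.5 times with only the 2 groups compared (17 in D1, 1822 in D3 in place of 993), array weights (1039, 4879 and 2976), an adjusted p of 0.01 (18, 1102 and 398), equal medians (55 in D1), the Y-linked block (170 in D1), BRSST+sgLuc replicates 2 and 5 set aside (143 in D1) and the high Y-linked class alone (722, 3655 and 1874), where they were 83, 2389 and 993 otherwise. Leaving out 1 array moved these counts in D1 to 22 at the least (BRSST+sgEzh2 replicate 4 left out) and 377 at the most (BRSST+sgLuc replicate 3 left out), with 36 without BRSST+sgEzh2 replicate 1, 47 without its replicate 3, 29, 257 and 34 without BRSST+sgLuc replicates 1, 2 and 4, to as few as 1481 (without sgLuc replicate 1) in D2, and to as few as 519 (without sgLuc replicate 1) in D3, with 610 and 597 without BRSST+sgEzh2 replicates 1 and 2 and 588 without sgLuc replicate 2, so the shares of all genes called are uncertain by as much. Low signals, such as that of Hsph1 in BRSST marrow, limit how well a fold can be sized.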
